A study of Homo sapiens with 10 samples.

Results

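The E proteins TCF3, TCF4 and TCF12 and the repressors HES1, HES4, HEY1, BHLHE40 and BHLHE41 are helix-loop-helix transcription factors, followed here as partners of the ID proteins. The 8 genes were read by 38 of the 54675 probe sets of the array, those that the platform annotation assigns to their symbols, out of 19775 genes in all. A probe set is a group of short probes that together report 1 transcript region. The probe set of highest mean log2 signal over the 10 arrays leads for each gene, and the other probe sets of the same gene are given beside it. All 8 lead probe sets passed the filter on dim signal (a mean log2 signal of at least 6.06, a signal of 66.7), and so did 26 of the 38 probe sets.

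E proteins bind DNA as dimers at E-boxes, the short motif CANNTG, and activate genes of differentiation and growth arrest. ID proteins carry a helix-loop-helix domain without the basic stretch that contacts DNA, so a dimer of an ID protein with an E protein does not bind. HES and HEY proteins are repressors, many of them induced when Notch receptors are cleaved and the Notch fragment joins RBPJ on DNA. HES proteins recruit corepressors of the TLE family. BHLHE40 and BHLHE41 (DEC1 and DEC2) are repressors of the circadian clock that bind the E-box CACGTG.

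The study asked for genes downstream of ID1 in 2 human non-small cell lung cancer lines, A549 and H1650, the latter labelled as EGFR mutant. Per line there was 1 array for each of 5 conditions: no stimulus, nicotine or EGF on cells given control siRNA, and nicotine or EGF on cells given siRNA against ID1. All cells had been starved of serum for 48 hours, and stimulated cells then received 1 µM nicotine or 100 ng/ml EGF for 18 hours. Every ID1 siRNA array came from stimulated cells, the sequence of the siRNA is not given in the sources used here, and the labels do not say whether the arrays came from separate cultures, so the p-values measure only the spread between these samples, which may be technical.

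The promoters of HES4, BHLHE41 and TCF3, the genes whose lead probe sets passed with ID1 siRNA in a line, and of HES1, which differed strongly between the lines, show which helix-loop-helix motifs lie next to their start sites. Each has 1 annotated start window, while TCF4 has 10 and TCF12 has 5, and those are not shown. The windows hold the 250 bases before the annotated start, 5′ to 3′ on the gene's strand, from RefSeq on GRCh38.p14, and capitals mark the motif matches named below. HES1 lies at chr3:194135898-194136147 on the plus strand, HES4 at chr1:1000098-1000347 on the minus strand, BHLHE41 at chr12:26125038-26125287 on the minus strand and TCF3 at chr19:1652616-1652865 on the minus strand.
HES1: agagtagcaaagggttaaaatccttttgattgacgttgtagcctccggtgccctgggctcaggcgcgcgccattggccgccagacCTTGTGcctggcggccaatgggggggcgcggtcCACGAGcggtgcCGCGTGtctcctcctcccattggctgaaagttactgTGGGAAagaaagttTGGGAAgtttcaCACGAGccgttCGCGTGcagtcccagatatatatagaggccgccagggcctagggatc
HES4: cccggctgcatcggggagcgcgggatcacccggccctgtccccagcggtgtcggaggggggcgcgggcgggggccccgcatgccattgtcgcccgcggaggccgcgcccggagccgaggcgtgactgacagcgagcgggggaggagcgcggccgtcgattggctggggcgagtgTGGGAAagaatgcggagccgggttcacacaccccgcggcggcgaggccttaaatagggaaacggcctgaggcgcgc
BHLHE41: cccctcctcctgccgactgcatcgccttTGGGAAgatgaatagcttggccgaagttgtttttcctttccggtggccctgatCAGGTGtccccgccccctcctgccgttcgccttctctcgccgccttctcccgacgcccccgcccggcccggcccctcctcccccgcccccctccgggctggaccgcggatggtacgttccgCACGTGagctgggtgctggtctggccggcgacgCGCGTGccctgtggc
TCF3: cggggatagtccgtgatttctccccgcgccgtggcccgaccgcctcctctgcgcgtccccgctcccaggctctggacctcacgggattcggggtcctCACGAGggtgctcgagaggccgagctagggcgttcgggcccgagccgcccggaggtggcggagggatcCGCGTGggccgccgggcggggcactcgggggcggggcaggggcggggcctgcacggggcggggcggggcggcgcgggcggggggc

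The HES1 window, that of the Notch target best known for repressing its own promoter, held 3 matches to the N-box (CACNAG or CTNGTG, 165, 132 and 58 bases before the start), 2 to the class C site (CACGCG or CGCGTG, at 120 and 47 bases) and 2 to the RBPJ core TGGGAA, at 84 and 70 bases. HES4 held 1 RBPJ core, at 76 bases, and no other motif searched. BHLHE41 held CAGGTG at 169 bases and CACGTG at 48 bases, which both also match CANNTG, a class C site at 15 bases and an RBPJ core at 222 bases. TCF3 held 1 N-box at 153 bases and 1 class C site at 85 bases. Both strands were searched, so TTCCCA also counts as the RBPJ core and CACCTG as CAGGTG. Of 35116 promoter windows of the same length, 61.8% held CANNTG, 6.34% CACGTG, 17.5% CACCTG or CAGGTG, 32% an N-box, 9.72% a class C site and 20.8% an RBPJ core. BHLHE40, whose window lies at chr3:4979187-4979436 on the plus strand, held CACGTG at 245 bases and CATGTG at 234 bases. These matches describe letters, and binding was not measured.

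The values are MAS5 signals, a linear brightness per probe set, scaled by the authors to a 2% trimmed mean of 500 on each array. ID1 signal was 881 and 1031 with ID1 siRNA in H1650 against 4964 to 5121 on its 3 control arrays. In A549 it was 1343 on both ID1 siRNA arrays, 3720 and 3049 on the stimulated controls and 1645 on the unstimulated control, and across all probe sets that last array correlated slightly better with the ID1 siRNA arrays of A549 (r = 0.980 and 0.974) than with the other controls (0.973 and 0.969). The BHLHE41 difference between lines and several stimulus estimates, which rest on it, are therefore also given without it. The other line differences use it too and are given with it. The bioB spike-in signal was 987 to 1276 on the 4 ID1 siRNA arrays and 660 to 838 on the 6 control arrays, and in A549 the array median was 75.9 and 78.5 with ID1 siRNA against 61.2 to 66.1 without. The part of these technical differences in the results was not tested. Of 8 epithelial markers, 6 were above the array median on every A549 array and 8 on every H1650 array. Of 6 lung lineage markers on the array, SFTPB and SFTPC were above it on every array of both lines. NAPSA and FOXA2 were above it on every A549 array, FOXA2 at 2373 to 2965. NKX2-1, a defining factor of lung adenocarcinoma, and SCGB1A1 stayed below the array median in both lines (at most 59.9 and 34.0). Of 10 markers of blood, endothelial, stromal and muscle cells, 2 were above the median on every A549 array and 3 on every H1650 array, PECAM1 and COL1A1 in both and DES in H1650, and the leukocyte marker PTPRC was at most 37.6.

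**Figure D1:**
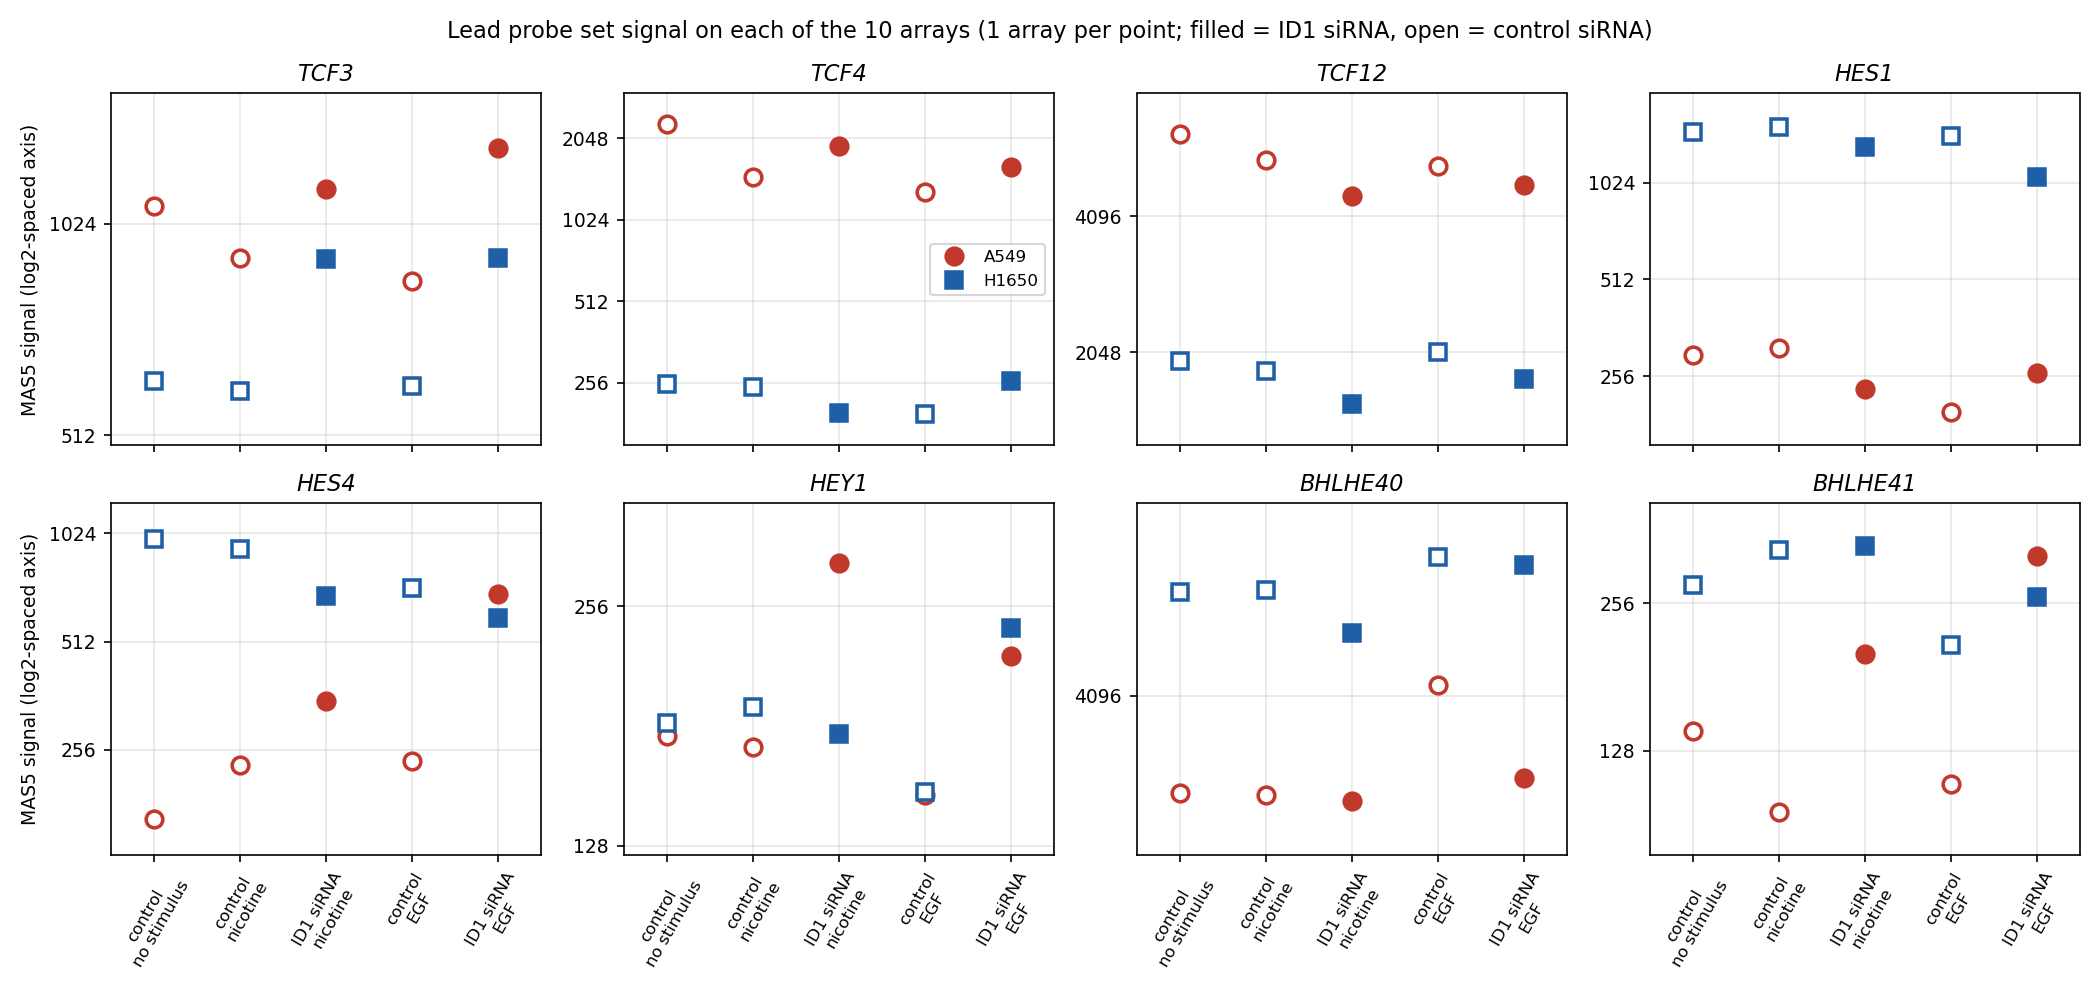
MAS5 signal of the lead probe set of each of the 8 genes on the 10 arrays, on a log2-spaced axis, with A549 as circles and H1650 as squares, filled for ID1 siRNA and open for control siRNA, 1 array per point. TCF4 and TCF12 are higher on every A549 array, HES1 and BHLHE40 on every H1650 array, and the filled A549 points of HES4 and BHLHE41 stand above the open ones.

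The lines differed most in TCF4 and HES1, and in opposite directions. TCF4, an E protein known from neurons and plasmacytoid dendritic cells, had a signal of 2308 without stimulus, 1475 and 1304 with control siRNA and nicotine or EGF, and 1927 and 1605 with ID1 siRNA and nicotine or EGF in A549. In H1650 the same conditions gave 253, 248, 196, 197 and 261. Every A549 array was above every H1650 array, and limma put A549 higher by a log2 difference of 2.88 ± 0.14 (SE), or 7.37-fold (adjusted p = 7.62e-07). In a whole culture, fewer cells that express a gene and less RNA per cell cannot be told apart.

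TCF12, a broadly expressed E protein, was also higher in A549 without overlap. Its A549 signals were 6202 without stimulus, 5440 and 5281 on the stimulated controls and 4536 and 4795 with ID1 siRNA, against 1959, 1863, 2050, 1571 and 1791 in the same order in H1650. The difference was 1.50 ± 0.08 on the log2 scale, 2.84-fold (adjusted p = 1.60e-06). TCF3, which encodes the E2A proteins, differed less: 1084 without stimulus, 916 and 849 on the stimulated controls and 1146 and 1310 with ID1 siRNA in A549. In H1650 the values were 612, 593, 602, 913 and 914. The lines overlapped for TCF3, because the ID1 siRNA arrays of H1650 reached the level of the A549 controls, and the difference was 0.56 ± 0.10 (1.47-fold, adjusted p = 0.00158).

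The repressors were mostly higher in H1650. HES1 stood at 297 without stimulus, 314 and 198 on the nicotine and EGF controls and 233 and 262 with ID1 siRNA in A549. In H1650 it stood at 1474, 1526, 1435, 1327 and 1070, so that the groups did not overlap and A549 was lower by 2.40 ± 0.14 (5.27-fold, adjusted p = 1.66e-06). BHLHE40, a stress- and hypoxia-induced repressor, was between 2873 and 4246 in A549 and between 5061 and 6530 in H1650, again without overlap, at -0.89 ± 0.09 (1.85-fold, adjusted p = 5.27e-05). HES4 was lower in A549 by 1.39 ± 0.35 (2.62-fold, adjusted p = 0.00735), although its A549 array with ID1 siRNA and EGF lay inside the H1650 range. BHLHE41 was lower in A549 by 0.83 ± 0.27 (1.78-fold, adjusted p = 0.0236), with overlap, and this call rests on single conditions. In this fit, leaving out 1 array also takes its partner in the other line out of the line estimate. Without the unstimulated control of A549 or H1650 the value was -0.79 (adjusted p = 0.0685 and 0.0695). Without the nicotine control of either line it was -0.59 (0.0746 and 0.0793), and without the EGF control of either line -0.80 (0.0621 and 0.0623). HEY1, a repressor induced by Notch and BMP signals, did not pass, at 0.07 ± 0.18 (95% interval from -0.34 to 0.49, adjusted p = 0.747).

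In all, 7 of the 8 genes passed between the lines, 3 higher and 4 lower in A549, where 63.1% of 12514 tested genes passed, 30.9% higher and 32.2% lower. The split over all genes moved from 3862 higher and 4031 lower to 4577 and 3187 when each array was centred on its median. The median over the 8 genes was -0.38, and that over all tested genes -0.03. For 4 of the 8 the lines did not overlap, against 50% of all tested genes. The remaining probe sets pointed the same way in a fit of all 23145 bright single-gene probe sets, which was chosen after seeing the data: TCF4 was higher in A549 for 7 of 7 (1.61 to 2.88), TCF3 for 7 of 9, TCF12 for 2 of 2, and HES1 and BHLHE40 were lower for 2 of 2 each. The largest TCF3 difference was at 209153_s_at, with 2.35 ± 0.13 (adjusted p = 1.02e-06), against 0.56 at the lead probe set. In all, 16 of the 26 bright probe sets were higher in A549 and 6 lower, where 61.3% of all bright probe sets passed, 28.8% higher and 32.5% lower.

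ID1 siRNA was followed in A549 by higher BHLHE41, HES4 and TCF3. The clock repressor BHLHE41 read 202 (nicotine) and 320 (EGF) after ID1 siRNA, 95.9 and 110 on the matched controls, and 140 on the unstimulated control. Both ID1 siRNA arrays were above all 3 controls. The fit over matched pairs gave 1.31 ± 0.24 on the log2 scale, 2.48-fold (limma adjusted p = 0.00575), with fold changes of 2.10 and 2.92 in the 2 pairs.

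HES4, a Notch-induced repressor close to HES1 in sequence, read 349 against 232 under nicotine and 694 against 239 under EGF, and 164 without stimulus. The ID1 siRNA arrays were again above all controls, by 1.51-fold under nicotine and 2.91-fold under EGF, and the estimate was 1.07 ± 0.22 (2.09-fold, adjusted p = 0.00895). TCF3 read 1146 against 916 under nicotine and 1310 against 849 under EGF. These are changes of 1.25-fold and 1.54-fold, and the estimate was 0.47 ± 0.13 (1.39-fold, adjusted p = 0.0255). The unstimulated TCF3 value of 1084 was closer to the ID1 siRNA array under nicotine than to the stimulated controls. Under array-median centring TCF3 was at 0.19 (adjusted p = 0.289), under quantile normalization at 0.38 (0.0552).

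These calls rest on the EGF pair. Without the A549 array with ID1 siRNA and EGF, or without its control, the estimates were 1.07 for BHLHE41 (adjusted p = 0.0707 and 0.0568), 0.59 for HES4 (0.124 and 0.107) and 0.32 for TCF3 (0.297 and 0.291), and 0 of the 8 genes passed. Without either nicotine array of A549, 4 passed, BHLHE40 being added at -0.45 (0.0471 and 0.0482).

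The other 5 genes did not pass in A549. HEY1 read 290 against 171 under nicotine and 221 against 148 under EGF, with an estimate of 0.67 ± 0.27 (adjusted p = 0.105). TCF4 was 1.31-fold and 1.23-fold higher in the pairs at its lead probe set, with 0.34 ± 0.19 (adjusted p = 0.210). TCF12 stood at -0.20 ± 0.09 (adjusted p = 0.155) and BHLHE40 at -0.24 ± 0.12 (0.182). Relative to the array median both were lower, at -0.49 (adjusted p = 0.00362) and -0.53 (0.00696), since that centring moved the median of all tested genes from 0.05 to -0.23. HES1 stood at -0.01 ± 0.20 (95% interval from -0.47 to 0.44), with opposite signs in the pairs, 1.34-fold lower under nicotine and 1.32-fold higher under EGF.

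The 3 genes that passed, all higher, compare with 25.3% of the tested genes in A549, 13.8% higher and 11.4% lower (1733 and 1428 genes, or 948 and 3966 after array-median centring). Under that centring 2 of the 8 genes were higher and 2 lower, and under quantile normalization 2 were higher and 0 lower. The median over the 8 genes was 0.41 against 0.05 over all. In 6 of the 8 the ID1 siRNA arrays did not overlap their matched controls, against 62.3% of tested genes. Beside these changes, COL1A1, a collagen gene of stromal cells that these lines also express, was higher by 1.14 ± 0.23 with ID1 siRNA in A549 (adjusted p = 0.00846), although its unstimulated control, at 853, lay above both ID1 siRNA arrays (664 and 659). Of the 8 epithelial markers 3 were higher, CDH1, KRT19 (0.60 ± 0.12) and CLDN7, the last at 60.6 or less on every A549 array, while 2 were higher under quantile normalization and 0 higher and 3 lower under array-median centring. The summed signal of the 10 markers of other cells was 1182 and 1351 with ID1 siRNA and 692 to 1410 without, and the part of these markers in the results was not tested.

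**Figure D2:**
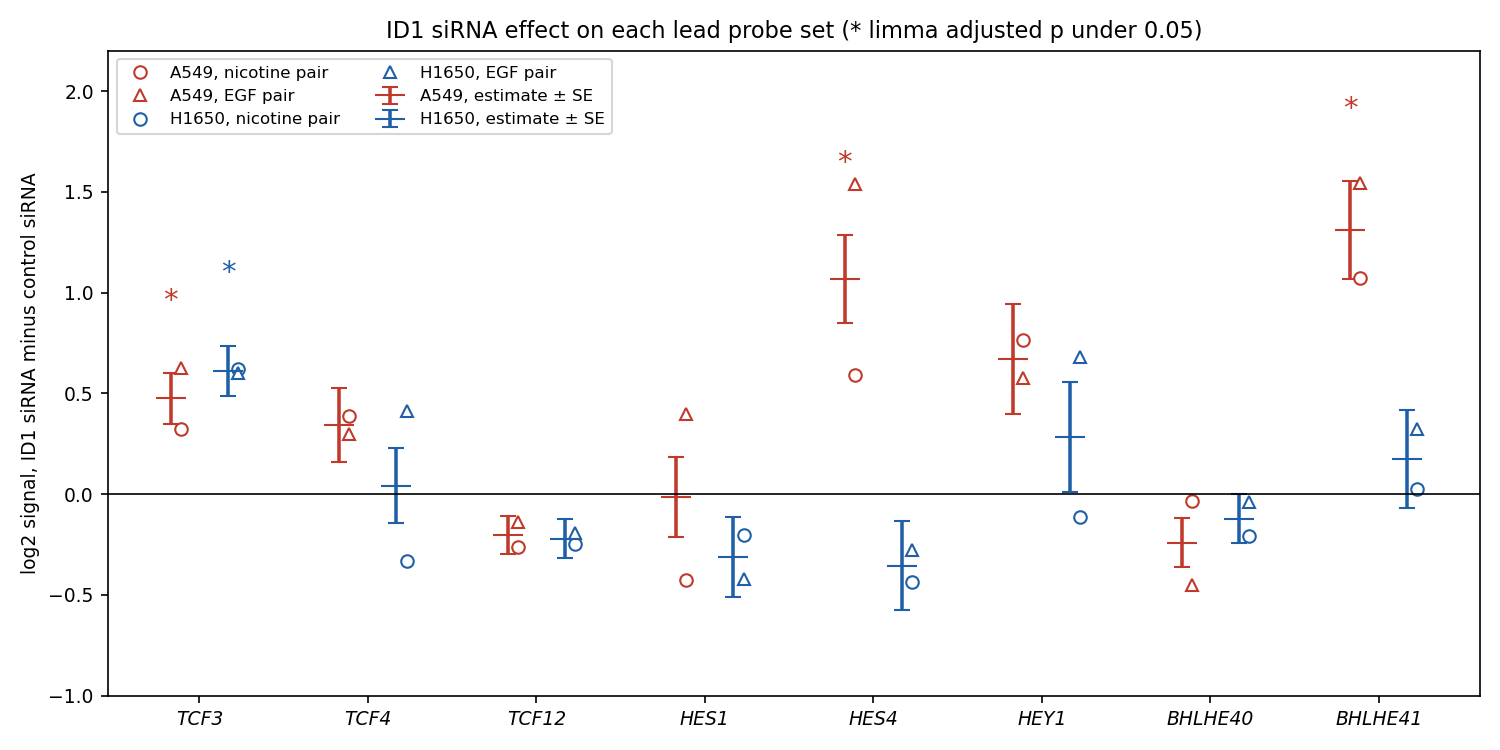
log2 signal with ID1 siRNA minus that with control siRNA for each lead probe set, with the estimate ± SE for each line, the nicotine pair as a circle and the EGF pair as a triangle, and an asterisk where the limma adjusted p was under 0.05. TCF3 lies above 0 in all 4 pairs, while HES4 lies above 0 in both A549 pairs and below 0 in both H1650 pairs.

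In H1650 only TCF3 passed among the 8 genes. It read 913 (nicotine) and 914 (EGF) after ID1 siRNA, 593 and 602 on the matched controls, and 612 on the unstimulated control. The 2 pairs gave 1.54-fold and 1.52-fold, both ID1 siRNA arrays lay above all 3 controls, and the estimate was 0.61 ± 0.13 (1.53-fold, limma adjusted p = 0.0162). Without the H1650 array with ID1 siRNA and nicotine it was 0.60 (adjusted p = 0.0521). This 1 gene compares with 12.3% of tested genes in H1650, 5.64% higher and 6.66% lower (706 and 834 genes, or 617 and 1128 after array-median centring). The median over the 8 genes was -0.04, and that over all tested genes -0.01. Beside this, the summed signal of the 10 markers of other cells was 1276 and 1804 with ID1 siRNA in H1650, above the 992 to 1191 of its controls. Picked after their values were seen, CDH5, an endothelial cadherin, read 247 and 148 with ID1 siRNA against 9.9 to 79.1 without, and COL1A1 998 and 590 against 501 to 551. Other markers of the list did not rise, such as PECAM1 (153 and 172 against 157 to 228) and PTPRC (18.7 and 5.2 against 12.8 to 37.1). Of the 3 such markers bright enough to test, 0 passed by limma in H1650, and the part of these markers in the TCF3 result was not tested.

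The repressors did not pass in H1650. HES4 read 687 against 928 under nicotine and 597 against 722 under EGF (-0.35 ± 0.22, adjusted p = 0.348). HES1 read 1327 against 1526 and 1070 against 1435 (-0.31 ± 0.20, 0.365). For both genes each ID1 siRNA array lay below all 3 controls. BHLHE41 read 334 against 329 and 263 against 210 (0.17 ± 0.24, 0.720), and HEY1 177 against 191 and 240 against 150 (0.28 ± 0.27, 0.571). BHLHE40 was at -0.12 ± 0.12 (0.583). Of the other E proteins, TCF12 was at -0.22 ± 0.09 (unadjusted p = 0.0462, limma adjusted p = 0.174) and TCF4 at 0.04 ± 0.19 (0.922). In 4 of the 8 genes the matched groups did not overlap, against 53% of tested genes.

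Across both lines, TCF3 and BHLHE41 were higher with ID1 siRNA in all 4 matched pairs, where 16% of tested genes were, and TCF12 and BHLHE40 were lower in all 4, where 15.3% were. Changes of at least 2-fold in single pairs, which have no replicate, were seen for 1 of the 8 genes in the A549 nicotine pair (7.7% of tested genes), 2 in the A549 EGF pair (9.53%), 0 in the H1650 nicotine pair (4.52%) and 0 in the H1650 EGF pair (4.03%). The within-line effects share their arrays with the test of the difference between lines, which HES4 alone among the 8 lead probe sets passed. Its ID1 siRNA effect was higher in A549 than in H1650 by 1.42 ± 0.31 (2.68-fold, limma adjusted p = 0.0218). This compares with 11.9% of tested genes, 6.98% higher and 4.92% lower in A549 (874 and 616 genes, or 623 and 1809 after array-median centring). BHLHE41 differed by 1.14 ± 0.34 (adjusted p = 0.0676), and passed without either nicotine array of A549, at 1.37 (0.0497 and 0.0430). The HES4 difference was 0.95 without either EGF array of A549 (0.0699 and 0.0592), and adjusted p was 0.0567 without the pair block. For TCF3 the difference was -0.14 ± 0.18 (95% interval from -0.54 to 0.27, adjusted p = 0.657).

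**Figure D3:**
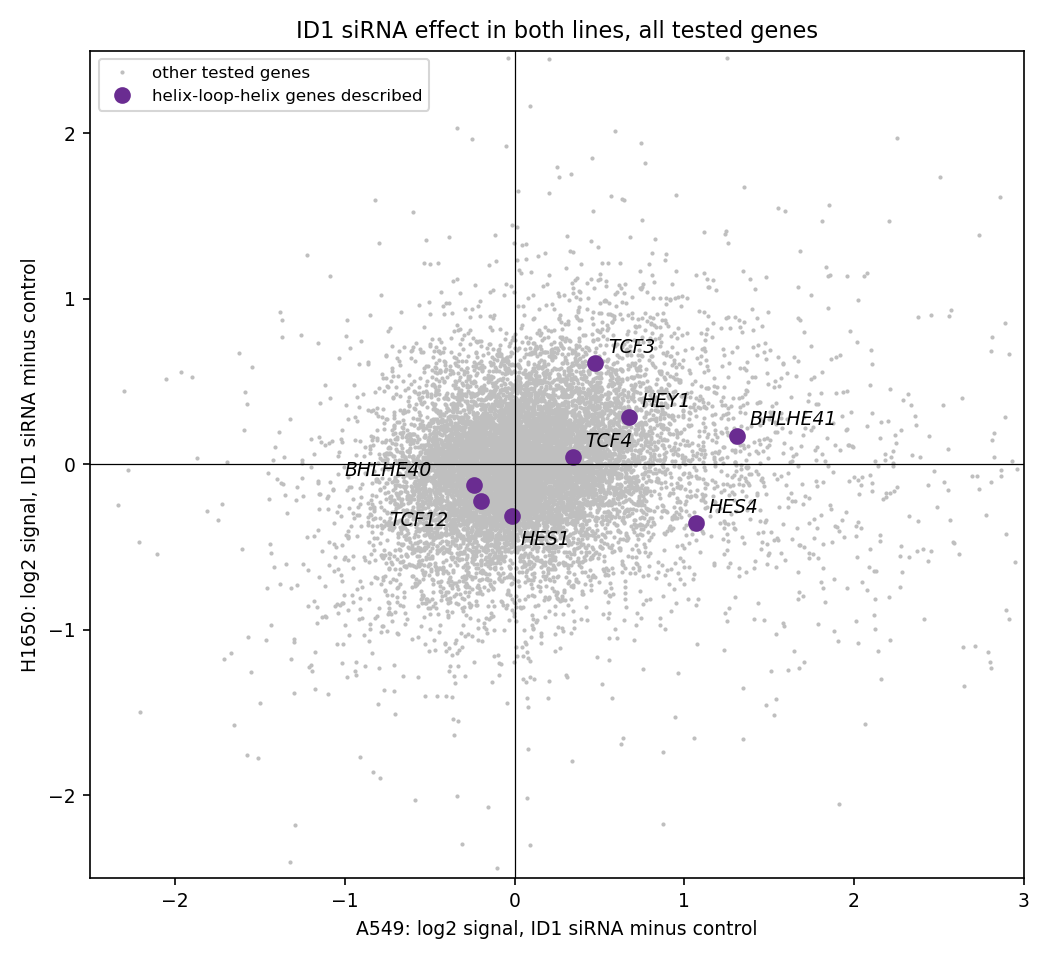
ID1 siRNA effect in A549 (x axis) and H1650 (y axis), both as log2 signal with ID1 siRNA minus control siRNA, for all tested genes in grey and the 8 genes in purple. TCF3 is up in both lines, BHLHE41 and HES4 lie far to the right with little change or a negative value in H1650, and 50 genes fall outside the axes.

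Probe sets of a gene did not all read the same change, and the lead probe set of TCF4 was the least responsive of its 7 bright ones in A549. In the fit of all bright probe sets the TCF4 estimates in A549 ran from 0.34 to 1.08, and 4 of the 7 passed. At 203753_at the A549 signals were 831 (nicotine) and 709 (EGF) after ID1 siRNA, 423 and 326 on the matched controls, and 643 without stimulus, and the estimate was 1.05 ± 0.20 (2.07-fold, adjusted p = 0.00835). The stimulated controls were the lowest arrays and the unstimulated control lay between the groups. The others that passed were 212382_at (1.08 ± 0.33, adjusted p = 0.0495), 213891_s_at (0.86 ± 0.21, 0.0213) and 212387_at (0.83 ± 0.24, 0.0407). At 212382_at the unstimulated control again lay between the groups. At 213891_s_at that control, at 761, lay between the ID1 siRNA arrays (786 and 717), as it did at 212387_at (589 against 621 and 569). At the lead it lay above both (2308 against 1927 and 1605). In H1650 0 of the 7 passed by limma, and estimates ran from -0.84 to 0.13.

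The difference between lines passed at 2 TCF4 probe sets, 203753_at (1.49 ± 0.29, adjusted p = 0.0168) and 212382_at (1.92 ± 0.47, 0.0403). At 203753_at the H1650 signals were 99.7 against 149 under nicotine and 100 against 123 under EGF. At 212382_at they were only 23.0 to 68.0, below the median of each array, so the H1650 side of that difference is read near background.

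For TCF3 all 9 bright probe sets were higher with ID1 siRNA in A549, from 0.21 to 0.91, of which the lead alone passed. Array-median centring lowered the lead from 0.47 to 0.19, and the other probe sets of the 8 genes were not refitted under another scaling. In H1650 7 of 9 were higher, from -0.15 to 1.51 over the 9, and 3 passed: the lead, 213730_x_at (0.84 ± 0.15, adjusted p = 0.0129) and 209152_s_at (1.07 ± 0.24, 0.0272). The lead and 213730_x_at are of the type whose probes may also match other transcripts, as is the single probe set of HES4. For HES1 the second probe set departed from the lead in A549. It read 280 against 191 under nicotine and 286 against 198 under EGF, with 161 without stimulus, so that both ID1 siRNA arrays were above all 3 controls, and it passed at 0.54 ± 0.14 (adjusted p = 0.0289) while the lead stood at -0.01. In H1650 it read 940 against 1235 and 842 against 1022 (-0.34 ± 0.14, adjusted p = 0.179), and the difference between lines passed at 0.88 ± 0.20 (0.0328).

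In this fit, chosen after seeing the data, 8 of the 26 bright probe sets of the 8 genes were higher in A549 and 0 lower, against 12.7% and 8.47% of all bright probe sets (21.2% in all). In H1650 3 were higher and 0 lower, against 5.06% and 5.19% (10.2% in all). For the difference between lines 4 were higher in A549 and 0 lower, against 5.25% and 3.33% (8.57% in all). Probe sets of 1 gene share their transcript and are not independent. The second probe sets of HEY1, TCF12 and BHLHE40 did not pass in either line. HEY1 218839_at was at -0.01 ± 0.38 in A549, where the lead was at 0.67. The 12 probe sets under the filter, 5 of TCF3, 3 of BHLHE41, 2 of TCF12 and 1 each of TCF4 and HES1, were not tested. Their mean log2 signals ran from 2.89 to 5.97. The BHLHE41 call in A549 thus rests on its lead probe set alone. Its dim probe sets read -0.23 (231243_s_at), 0.03 (223185_s_at) and -0.82 (231242_at) for ID1 siRNA in A549.

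**Figure D4:**
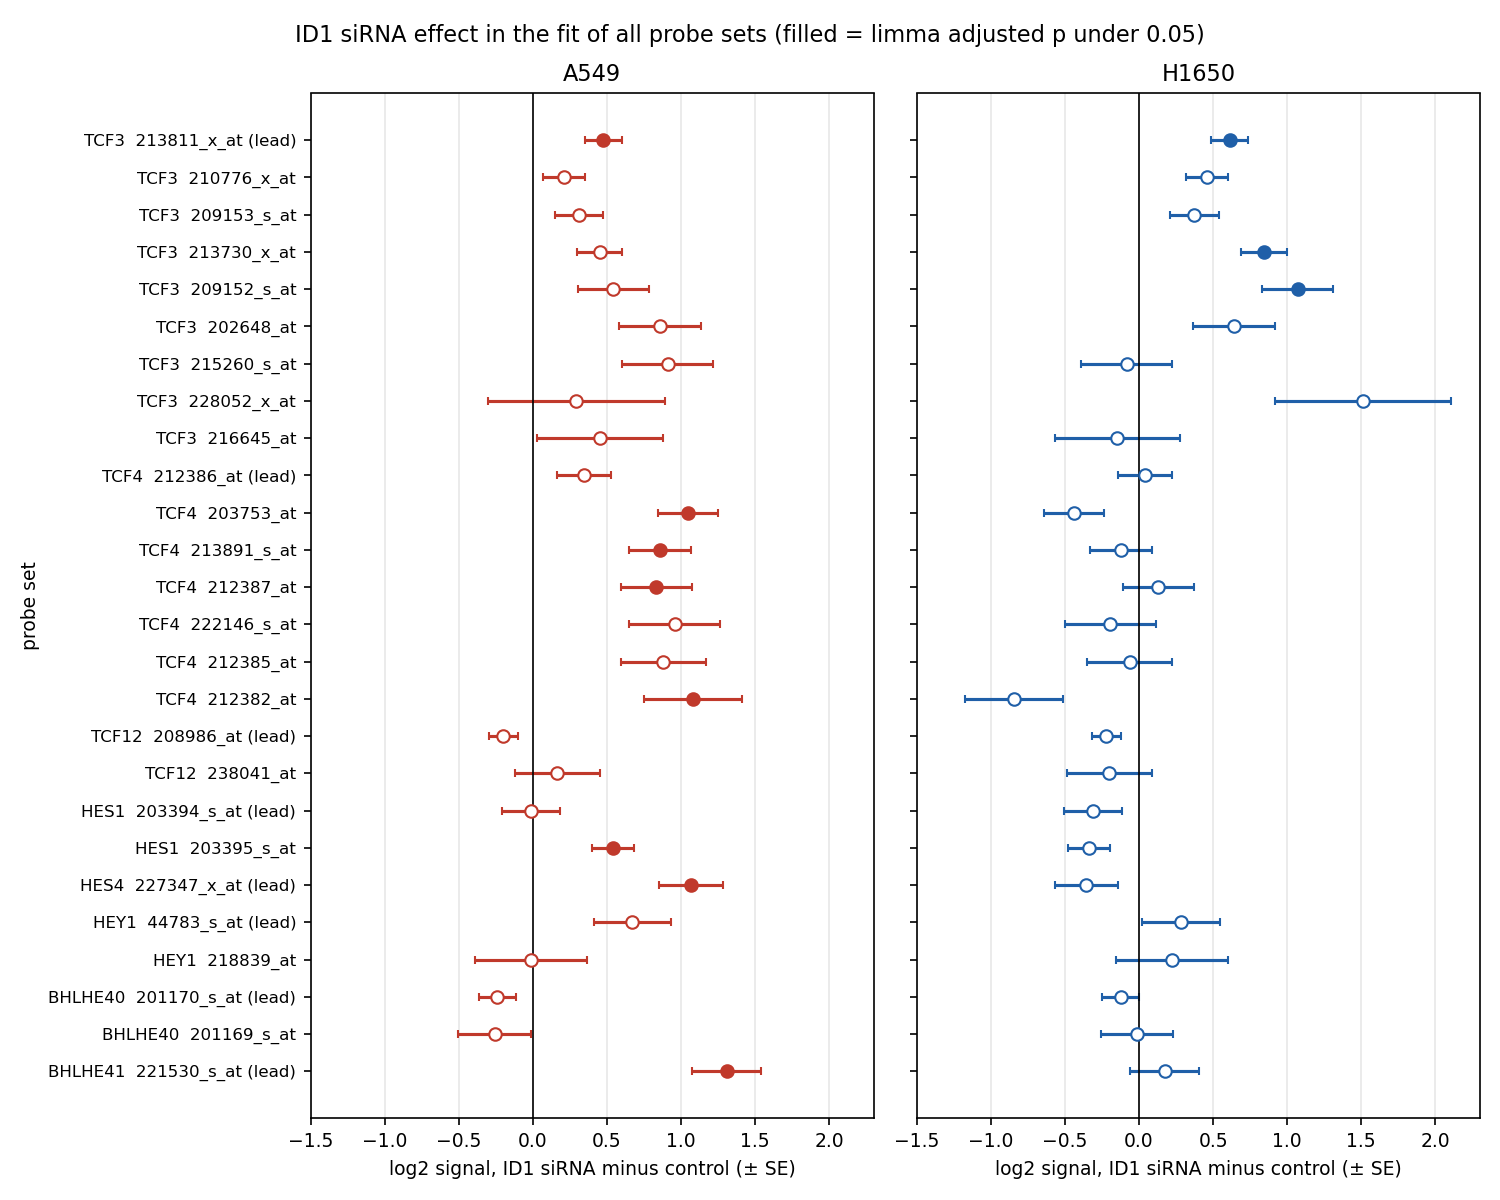
ID1 siRNA effect (log2 signal, ID1 siRNA minus control, ± SE) at each of the 26 bright probe sets, with A549 on the left and H1650 on the right, filled where the limma adjusted p was under 0.05. All 7 TCF4 probe sets lie right of 0 in A549 and 2 of 7 in H1650, and the 2 HES1 probe sets differ in A549.

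The stimuli gave no call among the 8 genes. With control siRNA, nicotine minus no stimulus ran from -0.34 to 0.21 over the 8 genes, with 0 passing by limma among all 12514 genes (0%) and 189 at an unadjusted p under 0.05, of which 0 were among the 8. EGF minus no stimulus ran from -0.60 to 0.35, with 0 genes passing (0%) and 747 at an unadjusted p under 0.05, among them TCF4 and BHLHE40. Both comparisons share the unstimulated controls, of which the A549 array stands apart. TCF4 read 1304 with EGF against 2308 without stimulus in A549 and 196 against 253 in H1650, and the estimate was -0.60 ± 0.22 (unadjusted p = 0.0261, limma adjusted p = 0.831), or -0.40 without the A549 unstimulated control. BHLHE40 was 4246 with EGF against 2953 without stimulus in A549 and 6530 against 5817 in H1650 (0.35 ± 0.15, unadjusted p = 0.0452, limma adjusted p = 0.831), or 0.29 without that array. For HES4 the sign turned without it, from 0.21 to -0.54 for nicotine and from 0.05 to -0.70 for EGF. For TCF3 it turned for nicotine, from -0.14 to 0.02, for TCF12 for EGF, from -0.08 to 0.02, and the estimates of nicotine on HEY1 were 0.01 and -0.07. Without that array the unstimulated level comes from H1650 alone, shifted by the line difference of the other conditions. The H1650 pairs themselves gave -0.09 for nicotine and -0.45 for EGF on HES4. They gave -0.05 for nicotine on TCF3, 0.07 for EGF on TCF12 and 0.07 for nicotine on HEY1.

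EGF against nicotine, compared within each line over both siRNAs, called 4 genes in A549 (0.032%; 0.024% higher and 0.00799% lower with EGF) and 27 in H1650 (0.216%; 0.0719% higher and 0.144% lower) by limma, with 1198 and 1341 at an unadjusted p under 0.05, and 0 of the 8 in either. BHLHE40 was 1.44-fold and 1.08-fold higher with EGF than with nicotine in the A549 pairs (0.32 ± 0.12, unadjusted p = 0.0270, limma adjusted p = 0.514) and 1.12-fold and 1.26-fold in the H1650 pairs (0.24 ± 0.12, adjusted p = 0.537). In each line both EGF arrays lay above both nicotine arrays, a separation of either direction that 1 of the 8 genes showed in A549 and 2 in H1650, against 21.8% and 27.7% of tested genes. These BHLHE40 values are of the lead probe set. Its other bright probe set, 201169_s_at, gave -0.17 for EGF minus nicotine in A549 and 0.13 in H1650. For EGF minus no stimulus it gave -0.07, against 0.35 at the lead. The stimulus comparisons were not tested at 201169_s_at. HES4 was 1.99-fold higher with EGF than with nicotine under ID1 siRNA and 1.03-fold under control siRNA in A549 (0.52 ± 0.22, unadjusted p = 0.0435, limma adjusted p = 0.515). BHLHE41 had estimates of opposite sign, 0.43 ± 0.24 in A549 and -0.50 ± 0.24 in H1650 (adjusted p = 0.600 and 0.531), and that difference between lines was not tested. Whether the ID1 siRNA effect differed between EGF and nicotine was tested over both lines: 0 of 12514 genes passed by limma (0%), with 126 at an unadjusted p under 0.05, of which 0 were among the 8. The estimate for HES4 was 0.55 ± 0.77, with a 95% interval from -1.21 to 2.32.

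Genes around these factors were read from lists whose members were chosen by role. The ID family itself changed in both lines: in A549 ID1 and ID2 fell by 1.33 ± 0.11 and 1.35 ± 0.17 on the log2 scale, and ID4 and ID3 were higher by 1.90 ± 0.24 and 0.66 ± 0.10. For each of these genes the unstimulated A549 control lay between the ID1 siRNA arrays and the stimulated controls. ID2 read 5446 on it, 4356 and 4321 with ID1 siRNA, and 9087 and 13553 on the stimulated controls. ID4 read 165 on it, 305 and 239 with ID1 siRNA, and 76.6 and 68.6 on the stimulated controls. In H1650 ID1 fell by 2.40 ± 0.11 and ID3 by 0.46 ± 0.10 (limma adjusted p = 0.0216). ID2, a further inhibitor of E proteins, had a signal of 487 on the unstimulated H1650 control and 5446 on that of A549, a line difference of 3.79 ± 0.22.

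Of 8 genes listed as known or proposed targets of E proteins, 6 passed the signal filter and were tested, and 4 were higher with ID1 siRNA in A549 and 0 lower, with a median of 0.52 against 0.05 over all tested genes, of which 13.8% were higher. CDKN1A, the cyclin-dependent kinase inhibitor p21, read 7053 against 3640 under nicotine and 7672 against 4019 under EGF, with 8015 on the unstimulated control. The unstimulated control lay above both ID1 siRNA arrays, as it did for GADD45A (3348 against 2865 and 2696). The estimate was 0.94 ± 0.11 (1.92-fold, limma adjusted p = 0.000636). IL7R, the interleukin-7 receptor, was higher by 1.43 ± 0.28 and GADD45A, a growth arrest gene, by 0.57 ± 0.09. The remaining gene was CDH1, E-cadherin (0.47 ± 0.13, adjusted p = 0.0295), which is also an epithelial marker. For IL7R the unstimulated A549 control, at 193, lay between the ID1 siRNA arrays (221 and 231) and the stimulated controls (67.1 and 105). For CDH1 that control, at 1938, lay between the ID1 siRNA arrays (2210 and 1818). The list gives no expected direction for its genes, CDH1 included, and the activity of E proteins was not tested. CDKN1A and GADD45A are also induced by p53. In H1650 0 of the 6 were higher and 1 was lower, GADD45A at -0.51 ± 0.09 (adjusted p = 0.0116). The difference between lines passed for CDKN1A (1.27 ± 0.15, adjusted p = 0.00165), GADD45A (1.08 ± 0.13, 0.00181) and IL7R (1.60 ± 0.39, 0.0344), a count of 3 that was 2 under quantile normalization and 3 under array-median centring. The count of 4 higher in A549 was also 4 under quantile normalization and 2 under array-median centring.

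Among 24 tested genes of the Notch pathway, 7 were higher and 3 lower with ID1 siRNA in A549, with a median of 0.22, where 13.8% of all tested genes were higher and 11.4% lower. MAML2, a coactivator of cleaved Notch, read 650 against 261 under nicotine and 524 against 229 under EGF (1.26 ± 0.13, adjusted p = 0.000323), and DTX4, a Deltex ubiquitin ligase, 917 against 342 and 646 against 369 (1.12 ± 0.15, 0.00133). Their unstimulated A549 signals, 498 and 629, were closer to the ID1 siRNA array under EGF than to the stimulated controls. The ligand DLL1 passed at 1.80 ± 0.46 (0.0231) but was at 80.8 or less on every A549 array. In H1650 0 were higher and 2 lower, nicastrin NCSTN, a subunit of the gamma-secretase that cleaves Notch (-0.90 ± 0.19, adjusted p = 0.0176), and ADAM10, a protease that cuts Notch before gamma-secretase does (-0.43 ± 0.11, 0.0396). Both were also lower with ID1 siRNA than on the stimulated controls in A549, by 0.74 ± 0.19 and 0.45 ± 0.11. The unstimulated A549 control of NCSTN, at 295, lay below both ID1 siRNA arrays (394 and 362). That of ADAM10, at 9342, lay above them (7481 and 8680). The A549 counts were 4 higher and 2 lower under quantile normalization, and 4 and 6 under array-median centring. Between the lines 6 Notch genes were higher in A549 and 9 lower. That share lies close to the 63.1% over all tested genes, and the counts were 9 and 8 under array-median centring. The largest difference was at MAML3, a coactivator related to MAML2, with 1428 to 2029 in A549 and only 33.1 to 63.2 in H1650, below the median of each H1650 array. DTX4 (-2.22 ± 0.20) and MAML2 (-1.65 ± 0.18) followed.

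Of 13 tested circadian clock genes, 5 were higher and 1 lower with ID1 siRNA in A549 (2 and 2 under quantile normalization, 1 and 3 under array-median centring), against 13.8% and 11.4% of all tested genes, and 0 passed in H1650. The predominance of higher genes was thus not seen under either other scaling. By size the first were RORA, whose A549 signals of at most 49.2 lie below the array medians, the clock repressor CIART (1.18 ± 0.37, adjusted p = 0.0486), whose A549 control signals of 35.7 to 41.9 also lie below the array medians, and BMAL2, a partner of CLOCK (0.52 ± 0.16, 0.0446). The unstimulated A549 control of BMAL2, at 639, lay between the ID1 siRNA arrays (561 and 792). Among 8 tested corepressors, TLE4 was higher by 0.63 ± 0.10 (0.00345) and TLE2 lower by 0.91 ± 0.19 (0.0102) in A549, 0 passed in H1650, and both differed between lines, at 0.66 ± 0.15 and -1.05 ± 0.27. Under array-median centring 0 corepressors were higher and 1 lower in that difference. The unstimulated A549 control of TLE4, at 1556, lay between the ID1 siRNA arrays (1593 and 1383). That of TLE2, at 297, lay between the ID1 siRNA arrays (232 and 247) and the stimulated controls (518 and 390). Of 7 tested tissue-specific partners of E proteins (class II factors), HAND1 was higher by 1.18 ± 0.33 (0.0301; 0 were higher under quantile normalization) and MESP1 lower by 0.94 ± 0.20 (0.0104) in A549, and 0 passed in H1650. The unstimulated A549 control of MESP1, at 248, lay between the ID1 siRNA arrays (206 and 287). That of HAND1, at 89.8, lay near the stimulated controls (67.8 and 85.5). Between the lines TWIST2, a mesenchymal factor, was higher in A549 by 2.92 ± 0.14 and ASCL2, a factor of intestinal stem cells, lower by 2.02 ± 0.20, each with signals near the array median in the lower line. TWIST1, related to TWIST2, went the other way and was lower in A549 by 1.19 ± 0.12, at 456 to 591 against 1021 to 1363. Of the 3 other HES and HEY genes tested 0 passed for ID1 siRNA in either line by limma, and HES6 was higher in A549 than in H1650 by 1.06 ± 0.18.

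The genes whose log2 signal followed each member most closely over the 10 arrays, after each line's mean was taken out, were named by Pearson's r. For TCF3 they were PSMG4 (r = 0.983), CLSTN1 and RIOK1, and for TCF4 PIK3IP1 (0.972), SEL1L3 and SLC2A1. For TCF12 they were SDE2 (0.954), PPP1R13L and DIDO1. For HES1 they were ZNRF1 (0.951), MOCS2-DT and PODNL1, for HES4 PIGT (0.971), NLGN2 and ANAPC10, and for HEY1 ERICH1 (0.953), RNF216 and MLN. BHLHE40 was followed by ANXA2P2 (0.966), YWHAQ and PTP4A1, and BHLHE41 by TRIM26 (0.974), TRIM38 and IL12A. Among the members themselves the closest pair was HES4 and BHLHE41, at 0.775. The points share arrays, siRNA and stimulus, and the largest of 12514 coefficients is high by selection.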

How the data were processed

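RNA of 10 samples was hybridised to Affymetrix U133 Plus 2.0 arrays. The deposited values are linear signal intensities, one value for every probe set, computed by the authors with MAS5 in GCOS 1.4 per the submitters' processing notes, and each array has a 2% trimmed mean of 500. No detection calls were used, so dim probe sets are named by the array median. Here log2 was taken. Of 54675 probe sets, 62 controls, 1801 with several genes and 11721 without a gene were set aside, and 41037 of the other 41091 matched by Entrez identifier. The 12514 genes whose lead probe set had a mean log2 signal of at least 6.06 were tested.

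Limma 3.58.1 in R 4.3.3 (intensity trend, Benjamini-Hochberg over all tested genes, call at adjusted p under 0.05) was fitted to all 10 arrays by line and condition (4 residual degrees of freedom), and to the 8 stimulated arrays with matched pairs as blocks (2 residual degrees of freedom, with prior degrees of freedom of median 6.64). A fold change is 2 to the power of the size of a log2 difference. The number of arrays limits the precision. The scripts were tested on simulated data. Alternatives were the scaling, a pseudocount of 16, the filter, the probe set summary, the trend, the block and leaving out each array.

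All 8 members were named, with ID1, of each list up to the 3 genes of largest change that passed per comparison, and the 3 genes closest to each member. ID3, NCSTN and ADAM10 in A549 were added after their values were seen. So were TWIST1 between the lines, PECAM1 and PTPRC in H1650, and the lung lineage markers. The members and lists were chosen with earlier results of these data known, and the probe set fit and the list counts under other scalings after seeing the data.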

Additional observations from a re-analysis of the deposited data

Results flagged for a closer look

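Among the 8 lead probe sets, the ID1 siRNA effect differed between the lines for HES4, by 1.42 ± 0.31 on the log2 scale (limma adjusted p = 0.0218), with both A549 pairs higher and both H1650 pairs lower. In the fit of all probe sets, TCF4 differed at 203753_at by 1.49 ± 0.29 (limma adjusted p = 0.0168), again with both A549 pairs higher and both H1650 pairs lower, and at 212382_at by 1.92 ± 0.47 (0.0403), where the H1650 signals are below the array medians. The second HES1 probe set, 203395_s_at, differed by 0.88 ± 0.20 (0.0328), higher in both A549 pairs and lower in both H1650 pairs. Each was picked out by the test of the difference between lines, and all of these tests share the same 8 arrays.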

How the results depend on the processing

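The count of members that passed between the lines was 6 to 7 under every alternative, and 0 members passed for the stimuli under every alternative. For ID1 siRNA in A549 the count of 3 higher and 0 lower became 2 and 0 under quantile normalization and 2 and 2 under array-median centring. It became 1 with the mean of all probe sets of a gene and 1 without the intensity trend, and 0 to 4 when an array was left out. In H1650 the count of 1 stayed 1 under quantile normalization and array-median centring. It became 0 with the mean of all probe sets and 0 without the trend, and 0 to 1 when an array was left out. For the difference between lines the count of 1 became 0 with the mean of all probe sets and 0 without the trend. It became 0 without the pair block, and 0 to 2 when an array was left out. With the mean of all probe sets 7 of the 8 members passed the filter. Without the trend the adjusted p of HES4 in A549 was 0.0654 and that of TCF3 0.0862. Signs turned from those of the lead at single probe sets: HES1 203395_s_at in A549 at 0.54, and TCF3 215260_s_at and 216645_at in H1650 at -0.083 and -0.15. Other ID1 siRNA estimates that did not pass also differed in sign from their lead: 5 of 7 TCF4 probe sets in H1650, down to -0.84, and in A549 TCF12 238041_at (0.16) and HEY1 218839_at (-0.015). The cause was not tested.

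Over all genes, the 3161 calls for ID1 siRNA in A549 became 4914 after array-median centring, 1747 with the mean of all probe sets, 1394 without the trend and 1452 to 3598 when an array was left out. The 1540 calls in H1650 became 592, 1 and 981 to 1862 under the last 3 of these. The 1490 calls for the difference became 2432, 636, 199 and 878 to 1665, and 957 without the block. EGF against nicotine called 4 genes in A549 and 0 to 216 under the alternatives, and 27 in H1650 and 0 to 266. The labels number no replicates, so no block by replicate was made. When an array is left out, its lone partner is assumed to vary like the other groups.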
